A study of Mus musculus with 8 samples.

Results

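The genes described here are the receptor for R848 and its near relatives and the proximal signalling proteins they share, followed through the cell classes of MC38 tumors. They were chosen by name, 9 of the 24787 genes listed, and all 9 were listed in every tumor: the endosomal receptors Tlr7, Tlr8, Tlr9, Tlr3 and Tlr13, the transport chaperone Unc93b1, the adaptor Myd88, and the kinases Irak4 and Irak1. R848 (resiquimod) is a small imidazoquinoline agonist of Toll-like receptor 7. Medium R848-BPD is a bottlebrush-shaped polymer prodrug that carries R848 on a linker with a medium release rate.

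Single-cell RNA sequencing by Seq-Well, a microwell method that counts unique molecular identifiers (UMIs), was done on 8 subcutaneous tumors grown from MC38, a mouse colon carcinoma line, in 8-week-old female C57BL/6J mice. All tumors were taken 24 hours after dosing: 3 after saline, 3 after free R848 and 2 after medium R848-BPD. The study's methods set both forms at the maximum tolerated dose of R848 for its imaging and therapy studies but do not repeat a dose for these tumors, so the forms are set side by side at matched time and a matched dose is not stated for them. Cells with and without CD45, the pan-leukocyte marker, were separated on beads and loaded 9 to 1, so class sizes below reflect the loading and not the tumor. Every tumor comes from the same transplanted line and the same strain, and the labels do not say how replicate numbers relate across groups.

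Endosomal Toll-like receptors sense nucleic acids inside the cell: TLR7 and TLR8 are receptors of single-stranded RNA, TLR9 of unmethylated CpG DNA, TLR3 of double-stranded RNA and the mouse receptor TLR13 of bacterial ribosomal RNA. UNC93B1 carries them from the endoplasmic reticulum to endosomes. All but TLR3, which signals through TRIF, recruit MYD88, which assembles IRAK4 and IRAK1 into a complex that leads to NF-kappaB and interferon regulatory factors. Plasmacytoid dendritic cells (pDC) are the classical TLR7- and TLR9-rich cell type, and cDC1, the cross-presenting dendritic cells, are known for TLR3. The cDC2 subset presents antigen mainly to CD4+ T cells, and mature DCs are those that have been activated.

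The 8 tables held 10791 cell barcodes, and 9886 cells passed the quality limits. Libraries held 5867590 to 12422614 UMIs, with a median of 3247 to 6928 UMIs per kept cell. A total of 23 barcodes occurred in more than 1 library, 9 of them in all 8, and 59 kept cells carried such a barcode. Clusters were formed without the 9 genes or their pathway and named by marker genes: 5309 monocyte/macrophage-like cells (4505 macrophage-like and 804 monocyte-like), 1566 MC38-like, 955 NK-like, 767 T-like and 636 dendritic cell (DC)-like cells, with smaller classes of 140 neutrophil-like, 143 osteoclast-like and 50 fibroblast-like cells. A cluster of 320 cells with low UMI counts was left out. Only 9 cells held at least 2 of 4 B cell markers, so no B cell class was formed.

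Before any drug, most transcripts of Tlr7, Tlr8, Tlr9 and Tlr13 lay in the monocyte/macrophage-like cells. In the saline tumors these cells held 91.0% of all Tlr7 UMIs (87.7 to 93.4% per tumor), against 49.4% of the UMIs of all genes. Their shares of Tlr8 (92.3%), Tlr13 (90.9%), Tlr9 (88.1%) and Unc93b1 (86.5%) were of the same order. The share was lower for the signalling genes, with 66.3% for Myd88, 62.1% for Irak4 and 46.9% for Irak1, the last close to the share of all genes. Tlr3 differed from the other receptors, with 57.1% of its UMIs in monocyte/macrophage-like cells and 30.3% in the MC38-like cells.

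The same order appeared per transcript. UMIs were summed per tumor and class and expressed as counts per 1000000 UMIs (CPM), scaled across the 5 classes with enough cells in each saline tumor. Neutrophil-like cells, only 15 after saline, are given separately below. Tlr7 stood at 101.1, 109.9 and 99.6 CPM in the monocyte/macrophage-like cells of saline tumors 1, 2 and 3. In the DC-like cells it stood at 26.1, 16.5 and 16.2 CPM. None of the other 4 classes overlapped the monocyte/macrophage-like range, and the highest value among them was the 43.7 CPM of the T-like cells of saline tumor 2. Set against monocyte/macrophage-like cells by the quasi-likelihood test of edgeR with Benjamini-Hochberg adjustment, Tlr7 was lower by log2 −2.20 (SE 0.29) in DC-like cells (adjusted p = 2.17e-05). The corresponding difference was −1.84 for the T-like, −4.61 for the NK-like and −5.36 for the MC38-like cells, and each passed the adjusted threshold of 0.05. NK-like cells held 2.6 to 5.4 CPM and MC38-like cells 2.4 to 2.7 CPM.

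The T-like values of Tlr7 were uneven, at 28.3, 43.7 and 11.4 CPM. Macrophage markers moved with them: the summed level of a list of 7 such genes in the T-like cells was 2965, 12092 and 2150 CPM in the same tumors, with all 7 detected in each, against 18175 to 25240 CPM in the monocyte/macrophage-like cells. In DC-like cells the same list summed to 1152 to 5094 CPM after saline. The part of such transcripts in the T-like and DC-like receptor values was not tested.

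Tlr8, the neighbour of Tlr7 on the X chromosome, stood at 32.7, 56.1 and 36.4 CPM in monocyte/macrophage-like cells, and its highest value in any other class was 20.04 CPM in the T-like cells of saline tumor 2. It was lower in DC-like cells by log2 −2.37 (SE 0.49, adjusted p = 0.0017). Tlr13 stood at 233.5, 252.1 and 226.2 CPM in monocyte/macrophage-like and 56.5, 156.3 and 105.3 CPM in DC-like cells, a difference of −1.36 (SE 0.27, adjusted p = 0.0010) without overlap. That call rests on saline tumor 1: without it the difference was −0.90 with an adjusted p of 0.0805.

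Tlr9 was shared between monocyte/macrophage-like cells (56.9, 63.9 and 43.0 CPM) and DC-like cells (49.3, 41.1 and 44.6 CPM), and the ranges overlapped. The DC-like difference was −0.18 (SE 0.28) and did not pass the test (adjusted p = 0.71). NK-like and MC38-like cells held at most 1.5 and 2.5 CPM of Tlr9. Tlr3 had the broadest range of classes among the receptors. It stood at 22.1, 39.8 and 23.6 CPM in monocyte/macrophage-like, 55.1, 24.7 and 44.6 CPM in DC-like and 16.6, 19.2 and 32.7 CPM in MC38-like cells, 3 overlapping ranges. Neither the DC-like difference of 0.86 (SE 0.45, adjusted p = 0.198) nor the MC38-like difference of −0.43 (SE 0.35, adjusted p = 0.29) passed the test, and without saline tumor 2 the DC-like difference was 1.20 (adjusted p = 0.0096). NK-like cells held 1.3 to 2.7 CPM of Tlr3, lower by log2 −3.92 (SE 0.68).

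Unc93b1, without which none of these receptors reaches the endosome, stood at 546.1, 919.0 and 532.7 CPM in monocyte/macrophage-like and 357.9, 469.0 and 457.7 CPM in DC-like cells. The groups did not overlap, but the difference of −0.56 (SE 0.22) missed the threshold (adjusted p = 0.0877). It passed without the low-count filter (−0.67, adjusted p = 0.0038), with clusters from all variable genes (−0.59, adjusted p = 0.0472) and over all 8 tumors (−0.95, adjusted p = 7.34e-06, where 45.4% of genes were called). It was lower in T-like, NK-like and MC38-like cells by −2.10, −3.66 and −4.13. Myd88 stood at 139.2, 123.6 and 134.6 CPM in monocyte/macrophage-like and 140.6, 181.0 and 145.8 CPM in DC-like cells (difference 0.18, adjusted p = 0.57), and at 35.6 to 63.7 CPM in the other 3 classes, where it was lower by −1.17 to −1.78. Irak4, the kinase that MYD88 recruits first, had the same order, with 37.3 to 68.9 CPM in monocyte/macrophage-like, 56.7 to 98.7 CPM in DC-like and at most 34.6 CPM in the remaining classes. Irak1, the kinase that IRAK4 activates, was the most even, with 95.9 to 113.2 CPM in monocyte/macrophage-like, 104.7 to 118.5 CPM in NK-like and 70.7 to 71.6 CPM in MC38-like cells. Only the MC38-like difference of Irak1 passed the test (−0.57, SE 0.15, adjusted p = 0.0028).

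Of the 9 genes, 3 differed between DC-like and monocyte/macrophage-like cells, where 21.4% of the 9978 genes tested were called. In T-like, NK-like and MC38-like cells 8 of 9 were called in each, against 36%, 55.3% and 69.4% of all genes tested. Among the T-like calls, that of Tlr3 was lost without saline tumor 1 or 3 (adjusted p = 0.177 and 0.117) and that of Irak4 without saline tumor 1 or 2 (adjusted p = 0.116 and 0.122).

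**Figure D1:**
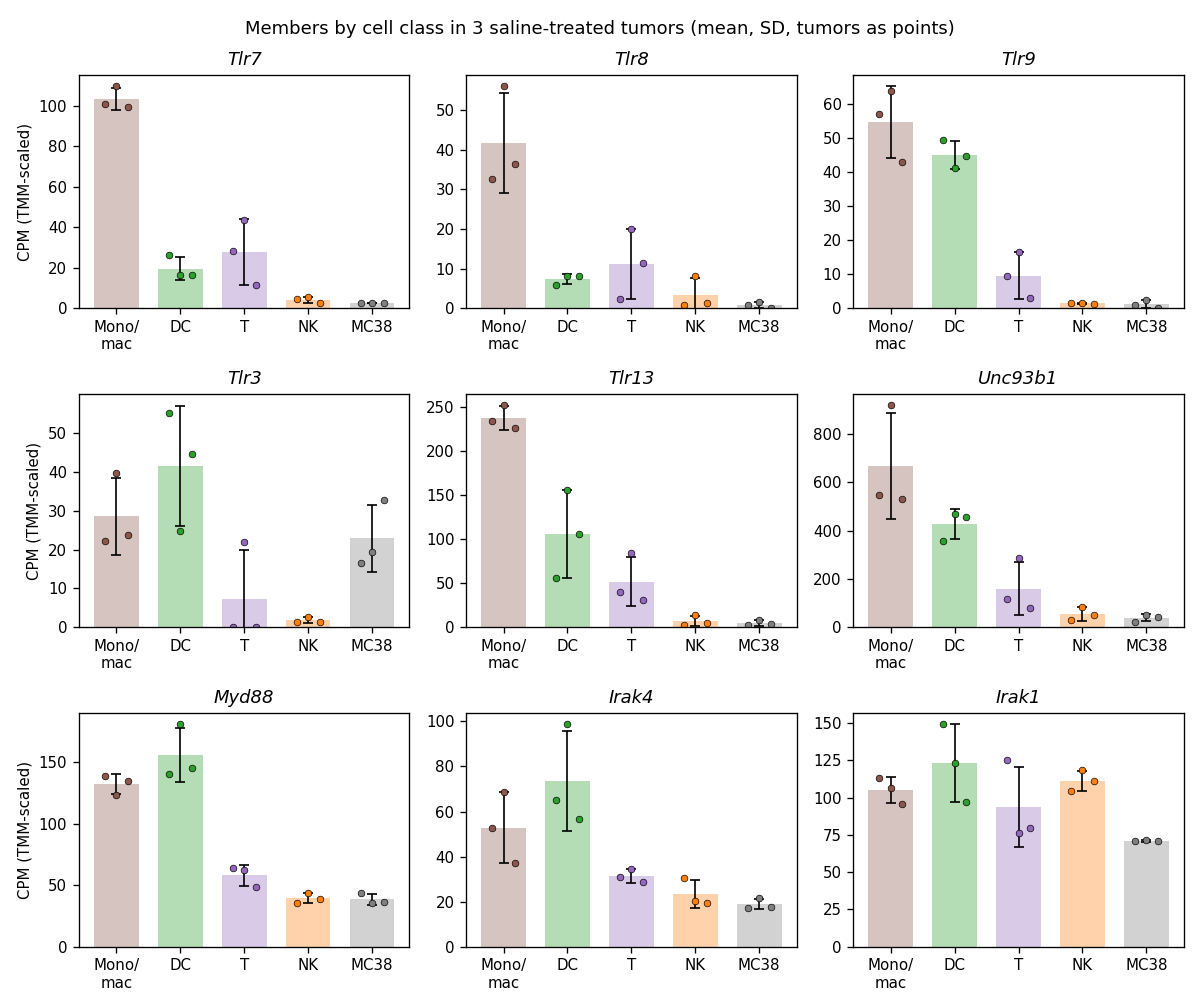
Level of each of the 9 genes (CPM, y axis) in monocyte/macrophage-like, DC-like, T-like, NK-like and MC38-like cells (x axis) of the 3 saline tumors; bars are means, lines are SD and points are tumors. Of these 5 classes, monocyte/macrophage-like cells are highest in Tlr7, Tlr8 and Tlr13 in every saline tumor, while Irak1 lies between 70.7 and 149.3 CPM in all 5 classes.

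Genes whose level followed that of Tlr7 most closely over the 15 class sums of the saline tumors were Cd68, a lysosomal glycoprotein of phagocytes (Pearson r 0.980, Spearman rho 0.957), Tpd52 (0.970), the integrin chain Itgam (0.970), the Fc receptor Fcgr1 (0.969) and Pilra (0.963). Those closest to Tlr9 were Tbxas1 (0.987), Picalm (0.982), Cfp (0.977), Ms4a6c (0.976) and Mpeg1 (0.976). These are descriptions over 5 classes of the same 3 tumors, among 9977 genes compared, and the sums share libraries.

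In single cells, depth sets how often a low transcript is seen. With every cell thinned to 1000 UMIs, 195 of 2349 monocyte/macrophage-like cells from the saline tumors held a Tlr7 UMI, a mean of 8.17% per tumor (7.45 to 9.48%). The share was 16.1% at 2000 UMIs and 33.2% without thinning. At 1000 UMIs no Tlr7 UMI was seen in 437 NK-like cells (a count of 0 permits up to 0.686% of cells with a UMI at that depth) or in 507 MC38-like cells (up to 0.592%). Without thinning 9 of 439 NK-like and 22 of 507 MC38-like cells held one, so these limits belong to the thinned depth and do not bound the cells with the transcript. In T-like cells 8 of 268 and in DC-like cells 6 of 268 were positive. At the same depth the mean share in monocyte/macrophage-like cells was 39.8% for Unc93b1, 16.3% for Tlr13, 11.9% for Myd88 and 2.08% for Tlr3.

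The DC-like class was itself mixed, and its subsets differed in receptors. Because single tumors held few cells of a subset, UMIs were pooled over the 8 tumors and given as unscaled CPM with exact 95% Poisson intervals, which cover counting error only, and no test was made. Tlr7 stood at 233 CPM (148 to 350) in the 24 pDC-like cells, from 23 UMIs. It stood at 2.25 (0.0570 to 12.5) in cDC1-like, 4.99 (0.604 to 18.01) in cDC2-like and 8.28 (3.97 to 15.2) in mature DC-like cells. These intervals do not overlap that of the pDC-like cells. In the saline tumors alone 11 pDC-like cells held 10 Tlr7 UMIs, 249.7 CPM (120 to 459), an interval that overlaps that of neutrophil-like cells after saline (146 CPM, 63.1 to 288) and lies above that of monocyte/macrophage-like cells (88.1 CPM, 83.1 to 93.3). Of these 11 pDC-like cells, 9 came from saline tumor 1, 0 from saline tumor 2 and 2 from saline tumor 3. Their level thus rests mostly on 1 tumor. In the 58 cDC1-like cells of the saline tumors there was no Tlr7 UMI, which allows up to 9.03 CPM. Of the 81 Tlr7 UMIs of the DC-like class, the 4 named subsets held 23, 1, 2 and 10 in that order, and the rest lay in unnamed subclusters, among them clusters of 64 and 40 cells led by macrophage genes such as C1qa and Apoe.

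Tlr3 was concentrated in the cDC1-like cells, with 66 UMIs or 149 CPM (115 to 189). It had no UMI in 257 mature DC-like cells (up to 2.49 CPM) or in the pDC-like cells (up to 30.5), and 4.99 CPM in cDC2-like cells. Tlr9 stood at 91.4 (41.8 to 173) in pDC-like, 22.5 (10.8 to 41.4) in cDC1-like and 21.5 (14.1 to 31.6) in mature DC-like cells. Unc93b1 stood at 670 (518 to 852) in pDC-like cells, 378 (323 to 440) in cDC1-like cells and 97.8 (80.9 to 117) in mature DC-like cells. Myd88, the adaptor, stood at 48.9 (37.2 to 63.0) in mature DC-like and 180 (143 to 224) in cDC1-like cells. These pooled levels mix treatments in unequal parts, since 58 of 75 cDC1-like but 47 of 257 mature DC-like cells came from saline tumors. Within the saline tumors Myd88 stood at 38.05 CPM (15.3 to 78.4) in mature DC-like and 138 CPM (101 to 185) in cDC1-like cells, and Unc93b1 at 81.5 CPM (45.6 to 134) and 385 CPM (321 to 458). Within the free R848 tumors Myd88 stood at 45.3 CPM (27.7 to 70.0) and 246 CPM (143 to 394), the latter from 12 cells. The intervals of the 2 subsets did not overlap in any of these 3 comparisons, which cover counting error only.

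Outside the DCs, the 15 neutrophil-like cells of the saline tumors held 8 Tlr7 UMIs, 146 CPM (63.1 to 288), and 18 Tlr13 UMIs, 329 CPM (195 to 520), against pooled levels of 88.1 CPM (83.1 to 93.3) and 202 CPM (195 to 210) in monocyte/macrophage-like cells after saline. The intervals overlap for both genes. The 15 cells numbered 4, 1 and 10 in saline tumors 1, 2 and 3. They held from 0 to 3.07% of a tumor's Tlr13 UMIs, and the Tlr13 level rests mostly on saline tumor 3. After free R848 Tlr13 stood at 392 CPM (327 to 465) in 73 neutrophil-like cells, above the 267 CPM (258 to 277) of monocyte/macrophage-like cells, and after medium R848-BPD at 354 CPM (282 to 437) in 52 cells against 293 CPM (282 to 305), where the intervals overlap. Over all 8 tumors neutrophil-like cells held Tlr7 at 78.2 CPM (57.8 to 103) and Tlr13 at 372 (325 to 423). Macrophage-like and monocyte-like cells had near-equal Tlr7 (95.1 and 98.2), while Myd88 was 116 in macrophage-like and 181 in monocyte-like cells. Osteoclast-like cells, a further myeloid class, held Tlr7 at 7.28 (3.64 to 13.0) and no Tlr9 UMI (up to 1.99), but Irak1 at 140 (121 to 160). Of these 143 cells, 78 came from saline tumor 3 and 44 from free R848 tumor 2.

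**Figure D2:**
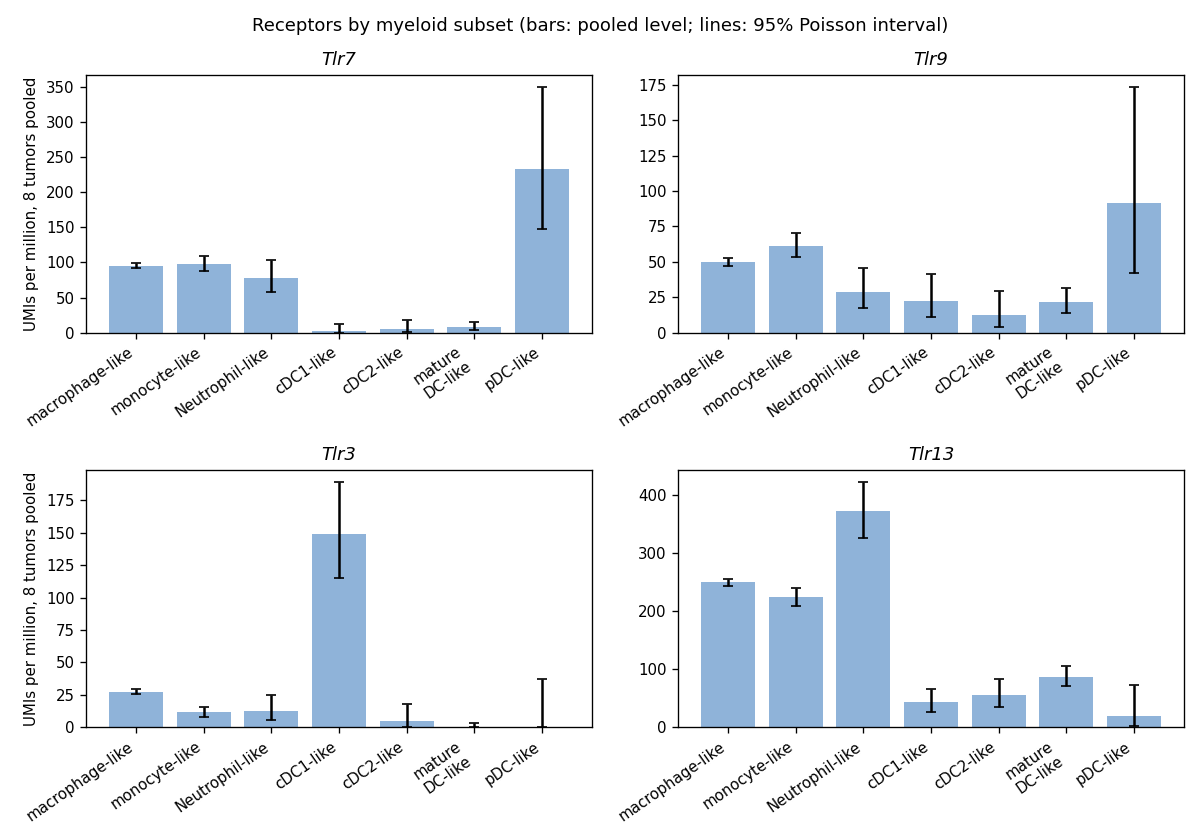
Pooled level (CPM, 8 tumors, y axis) of Tlr7, Tlr9, Tlr3 and Tlr13 in 7 myeloid subsets (x axis); bars are pooled levels and lines are 95% Poisson intervals. Pooled over treatments, the highest bar is that of pDC-like cells for Tlr7 (233), cDC1-like cells for Tlr3 (149) and neutrophil-like cells for Tlr13 (372). The subsets differ in their mix of treatments: 11 of 24 pDC-like, 58 of 75 cDC1-like and 15 of 140 neutrophil-like cells came from saline tumors. After saline the Tlr7 intervals of pDC-like and neutrophil-like cells overlapped, and the neutrophil-like Tlr13 interval overlapped that of monocyte/macrophage-like cells. Of the saline cells, 9 of 11 pDC-like came from saline tumor 1 and 10 of 15 neutrophil-like from saline tumor 3.

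The promoter table used here holds windows for 7 of the 9 genes, all but Tlr7 and Unc93b1, so the promoter of the R848 receptor is not shown. Those of the other 4 receptors are shown because their class patterns differ: Tlr8, Tlr9 and Tlr13 lie in the myeloid classes, and Tlr3 extends to the MC38-like cells. Each is the RefSeq window from 250 bases before to 50 after the start site (GRCm38.p6, 5′ to 3′ on the gene's strand), and the capitals mark GAGGAA on either strand, the core letters bound by the myeloid factor PU.1. The windows are chrX:167264280-167264579, minus strand (Tlr8), chr9:106222348-106222647, plus strand (Tlr9), chrX:106143025-106143324, plus strand (Tlr13) and chr8:45410331-45410630, minus strand (Tlr3).
Tlr8: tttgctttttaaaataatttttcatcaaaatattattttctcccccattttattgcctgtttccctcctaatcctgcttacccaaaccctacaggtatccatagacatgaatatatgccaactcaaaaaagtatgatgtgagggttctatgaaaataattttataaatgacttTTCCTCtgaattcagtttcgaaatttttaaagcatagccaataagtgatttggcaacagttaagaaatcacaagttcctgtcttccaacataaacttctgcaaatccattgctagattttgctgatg
Tlr9: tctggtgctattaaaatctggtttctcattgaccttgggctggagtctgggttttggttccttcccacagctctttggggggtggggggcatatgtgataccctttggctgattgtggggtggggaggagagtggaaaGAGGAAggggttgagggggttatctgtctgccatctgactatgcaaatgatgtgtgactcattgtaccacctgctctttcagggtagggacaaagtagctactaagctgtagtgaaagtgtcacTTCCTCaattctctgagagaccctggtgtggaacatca
Tlr13: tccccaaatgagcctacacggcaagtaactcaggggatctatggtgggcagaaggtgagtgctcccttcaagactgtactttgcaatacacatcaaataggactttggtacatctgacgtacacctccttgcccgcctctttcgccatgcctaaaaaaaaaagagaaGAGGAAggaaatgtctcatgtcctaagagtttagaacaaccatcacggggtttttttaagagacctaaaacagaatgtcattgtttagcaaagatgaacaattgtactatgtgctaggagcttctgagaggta
Tlr3: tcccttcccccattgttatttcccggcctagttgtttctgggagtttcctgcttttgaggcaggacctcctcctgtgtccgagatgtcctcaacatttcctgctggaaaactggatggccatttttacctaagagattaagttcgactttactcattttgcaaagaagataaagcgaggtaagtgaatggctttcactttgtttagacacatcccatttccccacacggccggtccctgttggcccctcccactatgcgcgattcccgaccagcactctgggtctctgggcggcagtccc
The letters occurred at 1 place in the Tlr8 window, beginning at base −77 from the start site, at 2 places in that of Tlr9, at 1 in that of Tlr13 (base −83), and not in that of Tlr3. Of the 7 members with a promoter window, 3 held them, and so did 28.3% of all 32851 windows. Of the other motifs searched on both strands, the interferon-stimulated response element was in the window of Myd88 (3.44% of all windows), a pair of NF-kappaB core letters in those of Tlr3 and Irak1 (20.7%), the AP-1 site TGAGTCA in that of Tlr9 (5.20%), and the gamma-activated site TTCNNNGAA in those of Tlr8 and Myd88 (8.30%). The E-box CACGTG was in none of the 7 and in 7.15% of all windows. These matches are descriptions of letters.

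By the annotation, Tlr7 (chrX:167304929-167330558, minus strand, GRCm38) and Tlr8 (chrX:167242696-167264329, minus strand) are adjacent protein-coding genes. Tlr13 (chrX:106143204-106160493) and Irak1 (chrX:74013914-74023918) are on the same chromosome, Tlr9 (chr9:106222598-106226883) and Myd88 (chr9:119335934-119341411) on chromosome 9, Tlr3 (chr8:45395665-45411080) on chromosome 8, Irak4 (chr15:94543643-94581815) on chromosome 15 and Unc93b1 (chr19:3935186-3949340) on chromosome 19.

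The next question was whether either form of R848 moved these genes in the cells that held them. Levels below are scaled within the class across all 8 tumors, and so differ slightly from those across classes. In monocyte/macrophage-like cells Tlr7 stood at 83.3, 90.6 and 82.2 CPM after saline, 102.3, 100.3 and 100.2 CPM after free R848, and 94.4 and 109.5 CPM after medium R848-BPD. All treated tumors lay above all saline tumors, but by small amounts. The share of all genes that separated in this way was not counted, here or for the genes below. The difference from saline was log2 0.24 (SE 0.10, 95% interval 0.01 to 0.47) for free R848 and 0.25 (SE 0.12, interval −0.01 to 0.51) for medium R848-BPD, and neither passed the adjusted test (adjusted p = 0.44 and 0.22). Between the forms Tlr7 differed by 0.01 (SE 0.12, interval −0.25 to 0.27, adjusted p = 0.99).

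The share of monocyte/macrophage-like cells with a Tlr7 UMI at 1000 UMIs was 9.49% after free R848 and 7.53% after medium R848-BPD, against 8.17% after saline. Two-sided exact permutation tests gave p = 0.5 and 0.8 against saline and 0.2 between the forms. With these group sizes the smallest p they can give is 0.1.

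Tlr13 was the 1 gene of the 9 that was called. It stood at 192.3, 207.8 and 186.6 CPM after saline, 280.3, 250.2 and 261.0 CPM after free R848, and 262.7 and 369.7 CPM after medium R848-BPD. The saline tumors were lowest without overlap, and the treated groups overlapped each other. Medium R848-BPD was above saline by log2 0.69 (SE 0.16, interval 0.33 to 1.05, adjusted p = 0.0352), where 7.27% of the 10543 genes tested were called. Free R848 was above saline by 0.43 (SE 0.14, adjusted p = 0.34), and the forms differed by 0.26 (SE 0.16, interval −0.10 to 0.62, adjusted p = 0.52). Without medium R848-BPD tumor 2 the difference was 0.43. The call was lost without saline tumor 1 or 3 or any 1 free R848 tumor (adjusted p 0.0592 to 0.102). It was also lost with the replicate number as a block (adjusted p = 0.0878) and with only the 2 groups compared (adjusted p = 0.119).

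Tlr8 stood at 27.0, 46.2 and 30.002 CPM after saline, 45.0, 27.6 and 40.3 CPM after free R848, and 49.7 and 54.3 CPM after medium R848-BPD. Both medium R848-BPD tumors lay above all others, with a difference from saline of 0.57 (SE 0.26, adjusted p = 0.21). Without saline tumor 2, the highest of its group, the difference was 0.87 (adjusted p = 0.0314), and without the low-count filter, with all tumors kept, it was 0.57 (adjusted p = 0.0387). The free R848 range lay within that of saline (difference 0.10, SE 0.24). Tlr9 and Tlr3 overlapped in every contrast, with differences of −0.23 to 0.31 for Tlr9 and −0.20 to 0.15 for Tlr3.

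Myd88 stood at 114.6, 101.8 and 111.0 CPM after saline, 159.5, 116.7 and 155.7 CPM after free R848, and 120.6 and 115.5 CPM after medium R848-BPD. Every treated tumor was above every saline tumor, and free R848 tumors 1 and 3 stood highest. The difference from saline was 0.40 (SE 0.14, adjusted p = 0.35) for free R848 and 0.12 (SE 0.15, adjusted p = 0.69) for medium R848-BPD. Unc93b1, Irak4 and Irak1 overlapped between saline and both treated groups. The highest Unc93b1 level was 757.4 CPM, in saline tumor 2, against 449.7 and 439.5 CPM in the other saline tumors. Irak1 differed by at most 0.16 in size in any contrast.

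After free R848 0 of the 9 genes were called, where 0.019% of all genes tested were, and DESeq2 also called 0 in that contrast. An unadjusted p under 0.05 was reached by 3 of the 9 (Tlr7, Tlr13 and Myd88) and by 1175 of all 10543 genes tested. For medium R848-BPD against saline it was reached by 1 of the 9 (Tlr13) and by 2604 of the 10543. Between the forms 0 were called by either tool, with 1.63% of all genes called. There 0 of the 9 and 1490 of the 10543 had an unadjusted p under 0.05. The median difference of the 9 genes was 0.24 for free R848 and 0.12 for medium R848-BPD against saline, and −0.13 between the forms. The medians of all genes tested were −0.002, −0.003 and −0.01.

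**Figure D3:**
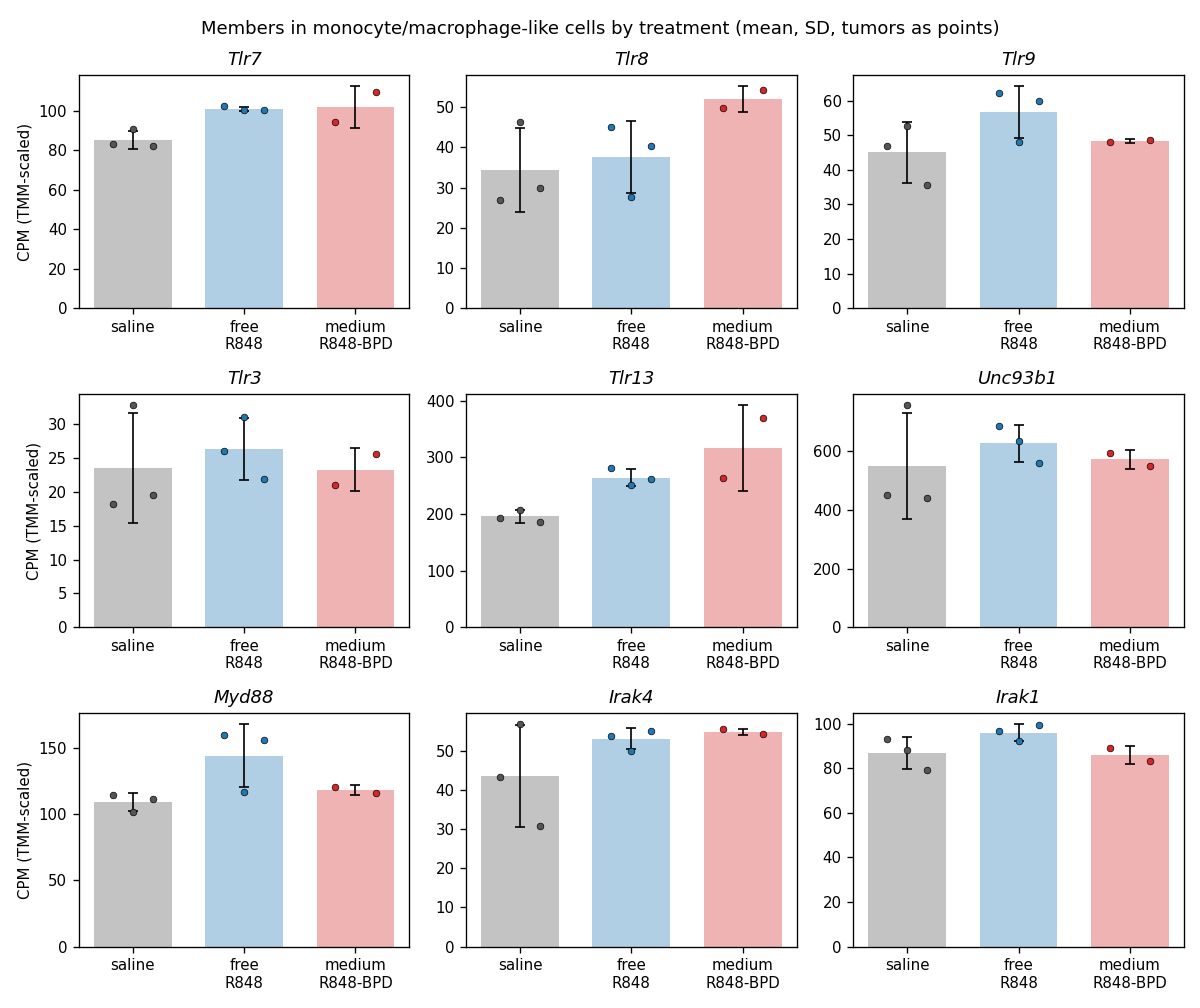
Level of each of the 9 genes (CPM, y axis) in monocyte/macrophage-like cells after saline, free R848 and medium R848-BPD (x axis); bars are means, lines are SD and points are tumors. For Tlr7, Tlr13 and Myd88 all treated tumors lie above all saline tumors, and only the medium R848-BPD difference of Tlr13 passed the test. The share of all genes that separated in this way was not counted.

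The mix of monocyte-like and macrophage-like cells changed between tumors. Monocyte-like cells made up 33.5, 5.54 and 32.0% of the class after saline, 17.8, 8.99 and 18.3% after free R848, and 3.45 and 2.20% after medium R848-BPD. Saline tumor 2, low in monocyte-like cells, was also the saline tumor highest in all 5 receptors, Unc93b1 and Irak4. The part of the mix in these values was not tested. Within macrophage-like cells alone, Tlr13 stood at 189.9, 211.4 and 178.0 CPM after saline and 269.1 and 373.7 CPM after medium R848-BPD, a difference of 0.73 (SE 0.16, adjusted p = 0.0284, with 8.12% of genes called). This call too was lost without medium R848-BPD tumor 2, which left 0.48 (adjusted p = 0.258), and without saline tumor 1 or 3 or free R848 tumor 2 or 3 (adjusted p 0.0525 to 0.0872). The macrophage-like cells also lay in different clusters from tumor to tumor. The 3 of their 7 clusters with both Gatm and Fcrls among the 10 leading genes, a split chosen after the values were seen, held 21.5, 75.8 and 21.0% of the macrophage-like cells after saline, 38.2, 25.5 and 17.5% after free R848, and 29.2 and 14.1% after medium R848-BPD. In the other 4 clusters Tlr13 stood, unscaled, at 219, 242 and 190 CPM after saline, 344, 275 and 265 CPM after free R848, and 309 and 363 CPM after medium R848-BPD, with the saline tumors lowest. In the 3 clusters it stood at 131, 215 and 134 CPM after saline, 233, 217 and 201 CPM after free R848, and 206 and 268 CPM after medium R848-BPD, where saline tumor 2 lay within the range of the treated tumors. These values by cluster were not tested. Over all macrophage-like cells, Tlr7 differed from saline by 0.29 (adjusted p = 0.36) after free R848 and 0.34 (adjusted p = 0.139) after medium R848-BPD. Between the forms 0 of the 9 genes were called in macrophage-like cells, where 1.7% of genes were. Myd88 stood at 93.7, 101.1 and 92.9 CPM after saline and 143.9, 112.7 and 149.2 CPM after free R848, a difference of 0.49 (SE 0.13, adjusted p = 0.22, with 0.00969% of genes called).

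In monocyte-like cells 8 of the 9 genes could be tested and 0 were called, where 4.19% of genes were called for medium R848-BPD and 0.312% for free R848 against saline, and 2.5% between the forms. For medium R848-BPD against saline 2 had an unadjusted p under 0.05, as did 1002 of all 5442 genes tested. Between the forms 1 did, and 824 of the 5442. Tlr9 was 139.6 and 92.4 CPM after medium R848-BPD and 76.0, 44.5 and 61.6 CPM after saline, a difference of 0.95 (adjusted p = 0.19) that rests on 19 UMIs in the treated tumors.

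In DC-like cells 0 of the 8 genes tested were called in any contrast, where 2.19% of genes were called for free R848 and 16.7% for medium R848-BPD against saline, and 1.19% between the forms. An unadjusted p under 0.05 was reached by 1 gene, Tlr3 for medium R848-BPD, where 1699 of all 5707 genes tested reached it. Tlr7 stood at 22.3, 15.9 and 14.5 CPM after saline, 29.0, 41.98 and 12.7 CPM after free R848, and 32.6 and 42.8 CPM after medium R848-BPD. Both medium R848-BPD tumors lay above the saline tumors (difference 0.92, SE 0.53, interval −0.19 to 2.04, adjusted p = 0.26), and the free R848 tumors overlapped with them. These values rest on 24 Tlr7 UMIs after saline and 32 after medium R848-BPD.

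Tlr3 in DC-like cells stood at 47.1, 23.9 and 39.9 CPM after saline, 12.4, 17.99 and 38.0 CPM after free R848, and 14.0 and 23.3 CPM after medium R848-BPD. The medium R848-BPD tumors lay below the saline tumors by log2 −1.23 (SE 0.54, adjusted p = 0.138). The cDC1-like cells, which held 66 of the 88 Tlr3 UMIs of the DC-like class over all tumors, numbered 37, 4 and 17 after saline, 1, 4 and 7 after free R848, and 3 and 2 after medium R848-BPD, while mature DC-like cells numbered 81 and 37 after medium R848-BPD against 23, 5 and 19 after saline. Pooled over the cDC1-like cells alone, Tlr3 was 135 CPM (98.8 to 181) after saline, 174 CPM (89.8 to 303) after free R848 and 210 CPM (96.2 to 399) after medium R848-BPD, from 12 and 5 cells in the treated groups. A fall in the number of cells of a subset and a fall in transcripts per cell cannot be told apart in the class sums. Unc93b1, Myd88 and Irak4 in DC-like cells differed from saline by −0.47, −0.58 and −0.57 after medium R848-BPD, none of which passed the test.

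**Figure D4:**
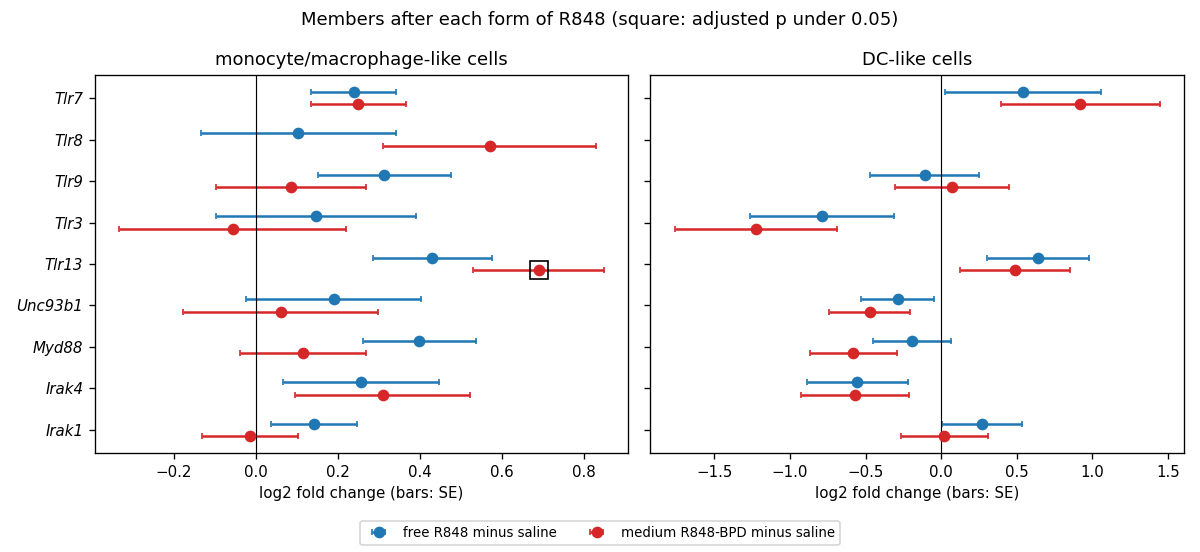
Difference from saline (log2 fold change, x axis) of each of the 9 genes (y axis) after free R848 and medium R848-BPD, in monocyte/macrophage-like cells (left) and DC-like cells (right; Tlr8 was too low to test); points are edgeR estimates, lines are SE, and the square marks an adjusted p under 0.05. The square stands at Tlr13 alone, and Tlr3 lies at −0.06 in monocyte/macrophage-like and −1.23 in DC-like cells after medium R848-BPD.

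The other classes held too few receptor UMIs for most tests. Of the 9 genes, 4 could be tested in NK-like cells, 6 in T-like cells and 6 in MC38-like cells, and edgeR called 0 in any contrast. Of all genes, 0.0118%, 0% and 0% were called for free R848 against saline in these 3 classes, 0.946%, 0.0394% and 0.853% for medium R848-BPD against saline, and 0.26%, 0.0526% and 0.259% between the forms. Tlr3 between the forms in MC38-like cells was the 1 case with an unadjusted p under 0.05, which 1516 of all 10790 genes tested reached there. Tlr3 in MC38-like cells stood at 20.5, 23.7 and 40.1 CPM after saline, 15.9, 19.0 and 21.3 CPM after free R848, and 26.7 and 52.3 CPM after medium R848-BPD. The medium R848-BPD tumors lay above those given free R848, by 1.14 (SE 0.30, adjusted p = 0.134), and overlapped the saline tumors. The 2 medium R848-BPD tumors were far apart, and without tumor 1 (26.7 CPM) the difference from free R848 was 1.51. That value rests on medium R848-BPD tumor 2 alone (52.3 CPM). Without the low-count filter, with all tumors kept, the difference was 1.16 (adjusted p = 6.02e-05).

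Whether a response differed between classes was tested directly, as the interaction of class and treatment against monocyte/macrophage-like cells with the tumor as a block. Of 54 such tests 0 passed the adjusted threshold, 9 had an unadjusted p under 0.05, and the lowest adjusted p was 0.152. That lowest value was for Tlr8 in NK-like cells after medium R848-BPD, where 0 Tlr8 UMIs were seen. After medium R848-BPD 1576 of 10505, 1164 of 10841 and 871 of 10911 genes had an unadjusted p under 0.05 for DC-like, NK-like and T-like cells. After free R848 these were 965, 639 and 857. Of all genes, 3.76% passed for DC-like, 1.13% for NK-like and 0.321% for T-like cells after medium R848-BPD, and 0.276%, 0% and 0% after free R848. In DC-like cells the response of Irak4 was lower than in monocyte/macrophage-like cells by −0.89 (adjusted p = 0.41) for free R848 and −0.93 (adjusted p = 0.21) for medium R848-BPD, and that of Tlr3 by −1.12 (adjusted p = 0.52) and −1.31 (adjusted p = 0.27). In T-like cells that of Myd88 was lower by −0.89 (adjusted p = 0.52) for free R848. The others under an unadjusted 0.05, lower as well, were Unc93b1 (free R848) and Myd88 (medium R848-BPD) in DC-like cells and Tlr7 (free R848) in NK-like cells.

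The other genes of the pathway were tested in monocyte/macrophage-like cells as 6 lists, given here in the order of the pathway. For medium R848-BPD minus saline, 7.27% of all genes tested were called (3.6% higher and 3.67% lower), and the count of each list below is to be read against that share. The only list with a call after free R848 was that of the genes known to respond to R848. Of 15 trafficking and processing genes tested, 1 was higher after medium R848-BPD than after saline (Hgs, an endosomal sorting protein, by 0.69) and 0 were lower. Of 17 adaptors, kinases and ubiquitin enzymes, 2 were higher and 0 lower in that contrast. Ikbke, the kinase IKK-epsilon that acts on interferon regulatory factors, stood at 40.3, 43.6 and 42.1 CPM after saline, 47.9, 50.7 and 50.9 CPM after free R848, and 118.8 and 112.3 CPM after medium R848-BPD. It was higher after medium R848-BPD than after saline (1.46, SE 0.11) and than after free R848 (1.22, SE 0.11, adjusted p = 0.0017), without overlap. Ikbkg, the NF-kappaB kinase scaffold NEMO, was higher by 1.08 than after saline (adjusted p = 0.0154, lost in 3 of 18 alternatives) and by 1.01 than after free R848 (adjusted p = 0.0431, lost in 8 of 18).

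Of 8 genes listed as brakes of the pathway, 1 was higher and 1 lower after medium R848-BPD than after saline. Whether each listed gene brakes the pathway in these cells was not tested. Irak3 encodes IRAK-M, a relative of the IRAK kinases that restrains the MYD88 complex. It stood at 41.3, 35.1 and 52.6 CPM after saline, 51.3, 45.7 and 56.0 CPM after free R848, and 161.9 and 147.2 CPM after medium R848-BPD. The difference was 1.86 (SE 0.17) from saline and 1.61 (SE 0.17, adjusted p = 0.0045) from free R848. Nfkbiz, a nuclear regulator of NF-kappaB, fell by 0.87 on the log2 scale, a call lost in 8 of 18 alternatives.

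Among 8 surface and other Toll-like receptors and co-receptors tested, 1 was higher and 1 lower. Tlr2, a receptor of bacterial lipoproteins, stood at 696.8, 480.3 and 742.3 CPM after saline, 373.5, 398.2 and 445.7 CPM after free R848, and 210.7 and 151.6 CPM after medium R848-BPD. It fell by 1.82 on the log2 scale against saline and by 1.16 against free R848 (adjusted p = 0.0431, lost in 7 of 18 alternatives). Its partner Tlr1 stood at 23.8, 29.3 and 26.1 CPM after saline and 50.1 and 43.4 CPM after medium R848-BPD, higher by 0.82. The 2 lower genes among 12 transcription factors were the NF-kappaB subunits Nfkb1 (by 0.91) and Rel (by 1.24), and 0 were higher. Nfkb1 stood at 228.2, 201.0 and 217.0 CPM after saline, 134.3, 136.2 and 152.2 CPM after free R848, and 114.8 and 115.1 CPM after medium R848-BPD.

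Of 14 genes known to respond to R848, 2 were higher and 1 lower after medium R848-BPD than after saline. The chemokine gene Ccl5 stood at 71.9, 121.1 and 130.9 CPM after saline, 457.7, 458.0 and 385.4 CPM after free R848, and 989.8 and 1061.0 CPM after medium R848-BPD. Ccl5 was the 1 pathway gene called after free R848, by 2.01 (SE 0.22, adjusted p = 0.0322, lost in 7 of 18 alternatives), and it was higher by 3.25 (SE 0.24, adjusted p = 0.0004) after medium R848-BPD. Nos2, inducible nitric oxide synthase, stood at 7.8, 21.5 and 39.4 CPM after saline, 42.6, 19.4 and 43.4 CPM after free R848, and 255.2 and 532.7 CPM after medium R848-BPD, higher by 4.15 than saline and 3.50 than free R848. Cd86, a costimulatory ligand, stood at 251.1, 177.5 and 252.9 CPM after saline, 163.4, 149.6 and 190.5 CPM after free R848, and 73.2 and 71.4 CPM after medium R848-BPD, and fell by 1.65 on the log2 scale against saline and 1.21 against free R848. The median of the response list was −0.69 for medium R848-BPD and −0.38 for free R848 against saline.

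Monocyte-like cells were fewest in the medium R848-BPD tumors, at the shares given above. Within macrophage-like cells alone Tlr2 (−1.63), Nfkb1 (−0.73), Cd86 (−1.40) and Ccl5 (3.47) were called in the same directions against saline. Over 18 alternatives the calls of Ccl5, Nos2, Irak3, Ikbke and Cd86 for medium R848-BPD against saline were kept in all 18, and those of Irak3 and Ikbke against free R848 as well. The calls of Tlr2 (adjusted p = 0.0569), Nfkb1 (0.0662), Hgs (0.177), Ikbkg (0.141), Rel (0.242) and Nfkbiz (0.268) against saline were lost without medium R848-BPD tumor 2, and those of Hgs, Ikbkg, Rel, Nfkbiz and Tlr1 also without saline tumor 1. That of Tlr1 was lost without either medium R848-BPD tumor (adjusted p up to 0.0845). The calls of Ccl5, Cd86, Nos2, Ikbkg and Tlr2 between the forms were lost without any 1 free R848 tumor or without medium R848-BPD tumor 2, those of all but Nos2 also without medium R848-BPD tumor 1, and those of Ikbkg and Tlr2 also without saline tumor 1. In all, the calls between the forms were lost in 6 of 18 alternatives for Ccl5, 5 for Cd86, 4 for Nos2, 8 for Ikbkg and 7 for Tlr2. The call of Rel against saline was lost in 6 of 18 alternatives, and that of Ccl5 for free R848 against saline without any 1 treated tumor (adjusted p up to 0.25).

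**Figure D5:**
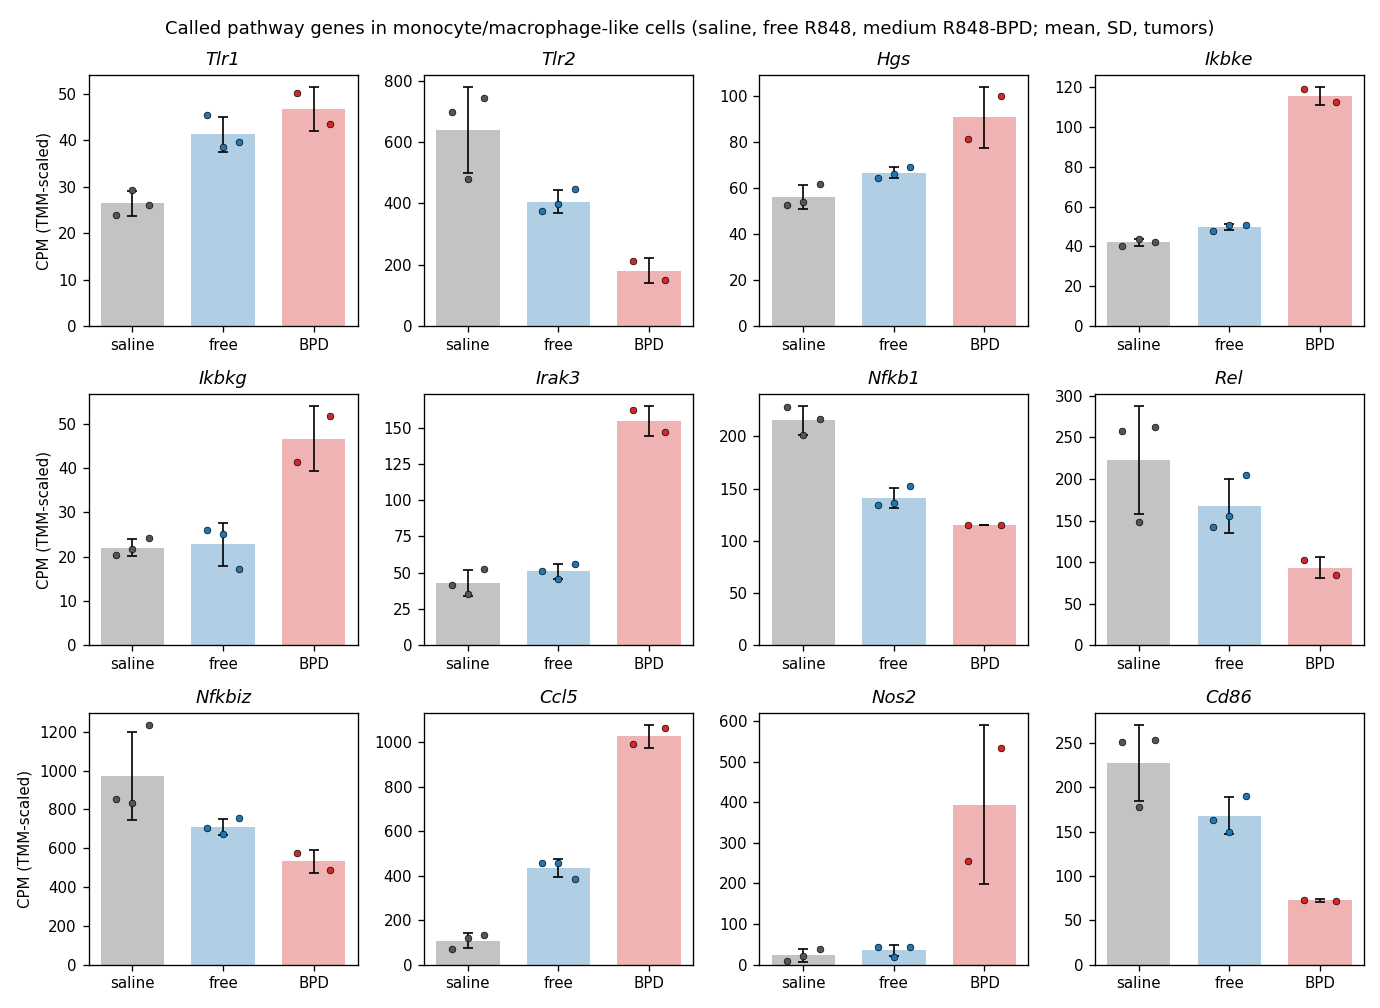
Level (CPM, y axis) of the 12 called pathway genes in monocyte/macrophage-like cells after saline, free R848 and medium R848-BPD (BPD) (x axis); bars are means, lines are SD and points are tumors. Ikbke and Irak3 lie at 112.3 CPM or more in both medium R848-BPD tumors and at 56.0 CPM or less in all others, while Tlr2 is lowest after medium R848-BPD (151.6 and 210.7 CPM).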

How the data were processed

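The processed files are 8 tables, 1 per tumor, of raw UMI counts with genes as rows and cell barcodes as columns, which the authors deposited after demultiplexing and alignment of Seq-Well reads to mm10. The counting annotation is not given in the sources used here, and gene symbols are those of the tables. Cells with over 400 and under 10000 genes, under 50000 UMIs and at most 15% mitochondrial UMIs were kept, the limits the study states. Scrublet marked 67 doublets (0.678%), which were kept. Cells were clustered with Seurat 5.3.0 without the genes described here, their pathway and 982 genes that the study lists as changed, and named from marker lists. A class needed 10 cells in a tumor.

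Counts were summed per tumor and class and tested with edgeR 4.0.16 (R 4.3.3): filterByExpr, TMM scaling, the quasi-likelihood F test on all genes that passed, and Benjamini-Hochberg adjustment at 0.05. All 8 tumors entered each treatment fit, so the 3 contrasts share samples. DESeq2 1.42.0 was an alternative. The SE is the estimate divided by the root of F, and intervals use its degrees of freedom. Shares of cells were compared with exact permutation tests (scipy 1.17.1). Levels are CPM, and floors count 3 UMIs over the pooled cells. UMIs come from transcript 3′ ends and genes differ in how well they are captured, so levels are not compared between genes. Scripts were tested on simulated data.

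Nothing says that tumors of a group came from separate experiments, so p-values measure the spread between these tumors. The 9 genes, the lists and the rule for named genes were chosen with earlier results of these data known. Named genes were the 9 members, the called pathway genes in monocyte/macrophage-like cells without overlap (at most 3 per list and contrast, mean of at least 10 CPM), and the 5 genes that correlate best with Tlr7 and Tlr9. Alternatives were DESeq2, RLE scaling, no low-count filter, only the groups compared, a replicate block, other clusterings, doublets or shared barcodes left out, and each tumor left out in turn.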

Additional observations from a re-analysis of the deposited data

How the results depend on the processing

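The number of the 9 genes called for medium R848-BPD against saline in monocyte/macrophage-like cells was 1, became 2 without the low-count filter (Tlr8 was gained) and 0 with only the 2 groups compared or with the replicate block, and ranged from 0 to 2 when 1 tumor was left out. It ranged likewise from 0 to 2 in macrophage-like cells. In MC38-like cells medium R848-BPD minus free R848 gave 0, but 1 (Tlr3) without the filter and 0 to 1 with a tumor left out. Of the 9 genes, 3 differed between DC-like and monocyte/macrophage-like cells after saline, where 21.4% of all genes were called, and 5 over all 8 tumors, where 45.4% were. Of 309 settings of such counts, 290 were within 1.5 times the reported count. Most of the reported counts between treatments were 0, and a 0 that stayed 0 was counted as within. This total therefore says little about the calls that were made. The share of monocyte/macrophage-like cells with a Tlr7 UMI after saline was 8.17% at 1000 UMIs, 16.1% at 2000 UMIs and 33.2% without thinning.

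Tlr13 for medium R848-BPD against saline in monocyte/macrophage-like cells was 0.69 (adjusted p = 0.119) with only the 2 groups compared and 0.66 (adjusted p = 0.0878) with the replicate block. Signs turned only for differences that were not called. With the replicate block Unc93b1 (medium R848-BPD minus saline) was −0.017 and Tlr7 (medium R848-BPD minus free R848) −0.0066, and the latter was −0.0021 at cluster resolution 0.8. With 1 tumor left out, values in monocyte/macrophage-like cells ranged from −0.072 to 0.37 for Unc93b1, −0.044 to 0.21 for Tlr9, −0.22 to 0.29 for Tlr3 and −0.070 to 0.040 for Irak1 (medium R848-BPD minus saline), from −0.054 to 0.40 for Tlr8 and −0.020 to 0.50 for Tlr3 (free R848 minus saline), and from −0.090 to 0.12 for Tlr7 between the forms. Over all 8 tumors Myd88 and Irak4 in DC-like against monocyte/macrophage-like cells were −0.24 and −0.17, and Irak1 in NK-like cells was −0.087 (−0.0069 to 0.18 with a saline tumor left out). The cause was not tested.

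Tumors with the same number showed no clear shared deviation. Correlations of their deviations from the group means ran from −0.235 to 0.213 over 7 pairs in monocyte/macrophage-like cells and from −0.159 to 0.050 in DC-like cells. They ran from −0.215 to 0.083 in NK-like, −0.190 to 0.214 in MC38-like and −0.091 to 0.216 in T-like cells. Pairs with different numbers ran from −0.216 to 0.205 in T-like cells. The numbers were not treated as pairs. Precision is limited by 2 medium R848-BPD tumors and by low counts: receptor UMIs in DC-like, NK-like and T-like cells were few, and Tlr8 could not be tested in DC-like cells.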

Other observations

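In DC-like cells genes of the wider pathway were called, while the subset mix of the class also differed between groups as given above. Medium R848-BPD minus saline gave 3 higher and 2 lower of 14 trafficking and processing genes tested, 3 higher of 11 adaptors and kinases, and 3 higher and 1 lower of 12 transcription factors. It gave 2 lower of 2 surface and other Toll-like receptors and co-receptors, 2 higher of 7 listed brakes and 5 higher and 1 lower of 12 response genes. The share of all genes called was 16.7%. Free R848 minus saline gave 1 lower surface co-receptor, 1 lower listed brake and 2 higher response genes, against 2.19% of all genes. The genes named next were chosen after their values were seen. Slc15a4, a lysosomal transporter needed for TLR7 and TLR9 signalling, stood at 88.6 ± 20.9 CPM after saline (SD, n = 3) and 37.3 ± 8.69 CPM after medium R848-BPD (SD, n = 2), a log2 difference of −1.07 (SE 0.34, adjusted p = 0.0408 by edgeR). Its relative Slc15a3 differed by −1.15 (SE 0.30), and Ctsl, a protease of the endosome, by 1.44 (SE 0.33). Irak3, the restraining kinase relative, was 9.18 ± 1.52 CPM after saline and 57.8 ± 21.3 CPM after medium R848-BPD (2.68, SE 0.48, adjusted p = 0.0018). The cytokine gene Il6 was 10.4 ± 3.60 and 125 ± 38.2 CPM in the same groups (3.54, SE 0.42, adjusted p = 0.0001). The part of the changed subset mix in these values was not tested.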
